A study of Mus musculus with 6 samples.

Results

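The proteasome genes of mouse follicular helper T (Tfh) cells were compared between cells lacking the ubiquitin ligases CBL and CBL-B and control cells. The genes were all protein-coding genes of the deposited table whose symbol begins with Psma, Psmb, Psmc, Psmd, Psme, Psmf or Psmg and a digit, apart from the interferon-inducible catalytic subunits Psmb8, Psmb9 and Psmb10. This rule matched 47 of 47729 genes. They fall into 8 alpha-type and 8 beta-type genes of the 20S core, 6 ATPases and 11 other subunits of the 19S cap, 6 regulators, 7 assembly chaperones, and Psmc3ip, a meiotic recombination factor that shares only the name. The rule was meant for the constitutive proteasome, but it also takes in Psme1, Psme2 and Psme2b, and PA28 alpha and beta, the products of Psme1 and Psme2, are known to be induced by interferon gamma.

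The proteasome is the barrel-shaped protease that degrades proteins marked with ubiquitin. Its core is a stack of rings in which the outer alpha rings form the gate and the inner beta rings hold the active sites, and the 19S cap recognises, unfolds and feeds in the substrate. E3 ligases such as CBL and CBL-B attach the ubiquitin, although ubiquitinated proteins can also reach the lysosome, and the series asks how these ligases act downstream of the costimulatory receptor ICOS in Tfh cells, the CD4 T cells that help germinal centre B cells.

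RNA was sequenced from 3 double knockout libraries, with the genotype Cbl-/-Cbl-b-/-, and from 3 control libraries labelled wt ctrl. Both groups were spleen Tfh cells from mice injected intraperitoneally with the antigen NP-OVA and sorted as CD4+, TCRb+, PD1hi and CXCR5hi. The sources used here do not give the strain, the age, how the alleles were deleted or whether each library came from a separate mouse. P-values therefore measure only the spread between these libraries, which may be technical. Reads assigned to genes numbered 30528775 to 38368885 in the double knockouts and 23392254 to 35075509 in the controls. Values are normalised counts, and a log2 fold change is the double knockout mean of log2(value + 1) less the control mean, a scale that shrinks changes of low genes.

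The libraries were first read for the targeted genes and for other cells. Cbl stood at 3262, 3856 and 2221 normalised counts in the double knockouts, against 12417, 12945 and 8614 in the controls. Cblb stood at 7459, 7881 and 8054 in the double knockouts, against 8943, 10037 and 6955 in the controls, a total over the whole gene that does not check the deletion. Xist and the Y-linked genes separated the groups (Xist 12769 to 18100 in the double knockouts and 12.9 to 970.4 in the controls; Kdm5d 2.05 to 4.10 in the double knockouts and 1608 to 2048 in the controls), so genotype and sex cannot be told apart here. T cell and Tfh markers were high throughout, but the 3 T cell markers did not all shift in the same direction. Cd4 stood at 64794 to 66382 in the double knockouts and 79244 to 82665 in the controls. Trbc2 was likewise lower, at 20760 to 23569 in the double knockouts and 28651 to 36470 in the controls. Cd3e was higher, at 40124 to 43463 in the double knockouts and 32994 to 34623 in the controls. The summed level of the 4 erythroid markers was 7.16 to 86.1 in the double knockouts and 252.6 to 568.1 in the controls, and all 4 did not overlap between the groups. For the 4 CD8 and NK markers the sums were 482.7 to 1318 in the double knockouts and 2733 to 3161 in the controls. Most of this was Klrb1c, at 365.9 to 1122 in the double knockouts and 2222 to 2655 in the controls. Cd8b1 was also lower, at 109.2 to 188.5 in the double knockouts and 420.5 to 509.7 in the controls. Ncr1 was near 0, at 1.025 to 8.194 in the double knockouts and 1.837 to 6.853 in the controls. Cd8a was at 0 in all 3 controls and in double knockout replicate 2, and its highest value was 3.579, in double knockout replicate 3. The 4 B cell markers read summed to 839.9 to 1831 in the double knockouts and 971.7 to 1510 in the controls, almost all of it Pax5. Ms4a1 was lower without overlap, at 1.79 to 6.15 in the double knockouts and 17.8 to 67.7 in the controls. So was Cd79a, at 7.159 to 22.94 in the double knockouts and 27.41 to 53.33 in the controls. Pax5 overlapped between the groups, as did Cd79b, at 14.35 to 37.69 in the double knockouts and 31.52 to 43.07 in the controls. The 5 myeloid markers summed to 59.1 to 114.7 in the double knockouts and 106.9 to 195.9 in the controls. Foxp3, the regulatory T cell factor, reached 5451 in double knockout replicate 2 and lay between 149.6 and 767.5 in the other 5 libraries. The other regulatory T markers did not share a direction. Il2ra was also highest in double knockout replicate 2, at 243.4 to 831.7 in the double knockouts and 84.49 to 259.0 in the controls. Ikzf2 was lower without overlap, at 7951 to 12291 in the double knockouts and 12353 to 17427 in the controls. The part of these differences in the proteasome values was not tested. In bulk RNA, fewer cells of a type and less RNA per cell cannot be told apart.

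No proteasome gene passed the test for a difference between double knockout and control Tfh cells. Of the 47 genes, 45 passed the filter on low values (at least 10 normalised counts in at least 3 libraries), and 0 of these 45 were higher and 0 lower at a limma adjusted p under 0.05, against 2.93% of all 13602 genes tested. The smallest adjusted p among them was 0.201, for Psme2b. At an unadjusted p under 0.05 there was 1 gene of 45, again Psme2b, against 17.0% of all genes. edgeR's quasi-likelihood test called 0 of the 45 and 2.98% of all genes, DESeq2 called 0 of the 45 and 8.24% of 13327 genes, and the authors' deposited table had 0 of the 45 and 7.18% of 13572 genes under an adjusted p of 0.05.

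The intervals limit how large a difference these data allow. The standard error of the log2 fold change had a median of 0.13 over the 45 genes and ran between 0.09 and 0.33. All 45 genes had a 95% confidence interval that lay within a log2 of 1 either way, which held for 67.5% of all genes. For 38 of the 45 the interval lay within a log2 of 0.5, which held for 36.0% of all genes. Psmc3ip had the widest interval, -0.59 to 0.92, and the lowest counts of the genes tested. A p that misses the threshold does not show that the levels were equal.

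Fold changes were small and more often below 0 than above it. Of the 45 log2 fold changes 34 were negative (75.6%, against 50.1% of all genes) and 11 were positive, with a median of -0.07 over the 45 and 0.00 over all genes. They ran from -0.27 for Psma6 to 0.44 for Psme2b. The count of negative values depended on single libraries. Leaving out control replicate 3 gave 22 of 45 and a median of 0.004. Leaving out double knockout replicate 2, the library with high Foxp3, gave 23 of 45 and a median of -0.003. Leaving out double knockout replicate 3 gave 43 of 45 and a median of -0.16, and 0 of the 45 were called in each of these fits. Groups did not overlap for 1 gene that was higher in the double knockouts, Psme2b (12.3% of all genes), and for 3 that were lower, Psmd14, Psmd4 and Psmd5 (11.3% of all genes).

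**Figure D1:**
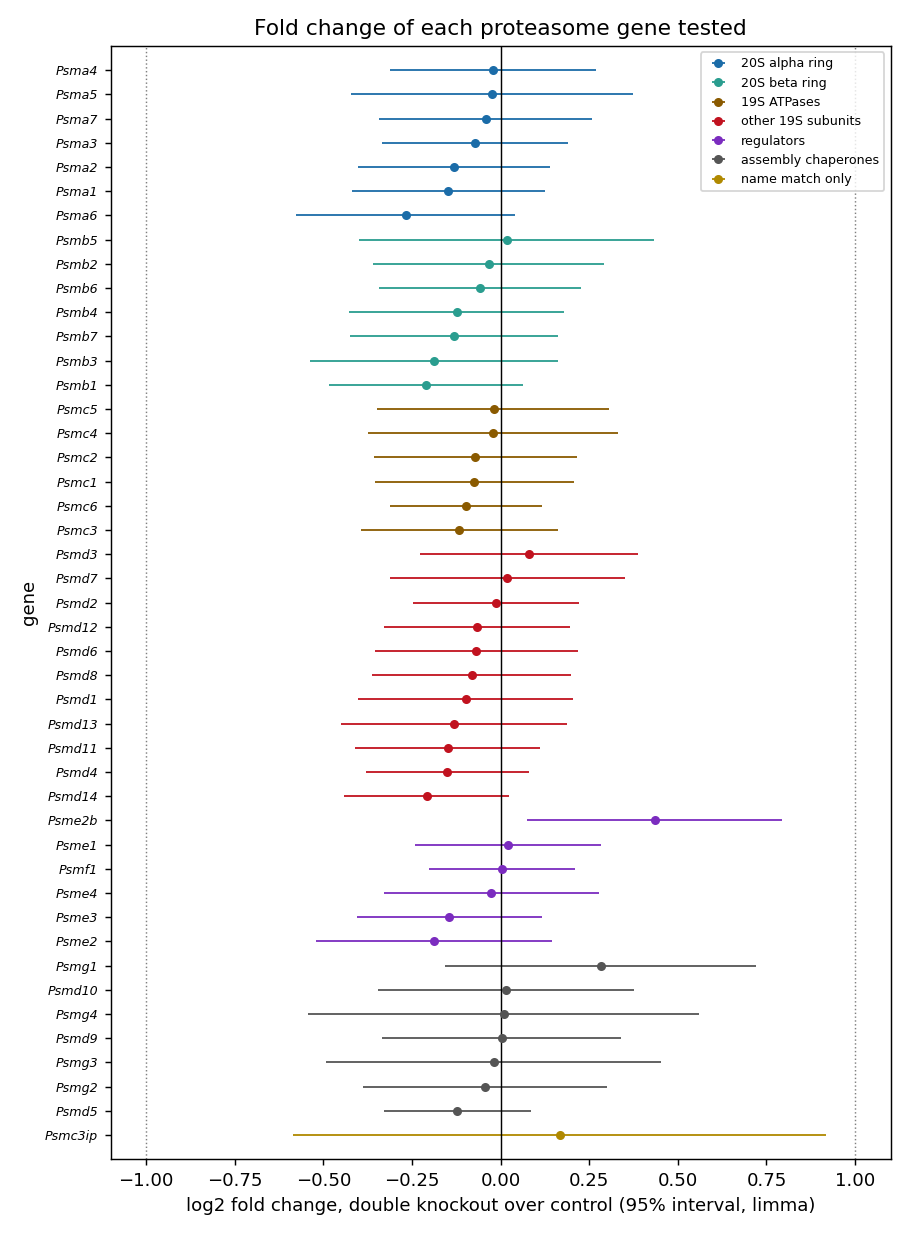
Log2 fold change (double knockout over control) of the 45 proteasome genes tested, with points for the limma estimate and bars for its 95% confidence interval, coloured by class; dotted lines mark a log2 of 1 either way. All bars stay within the dotted lines, and 44 of them cross 0, Psme2b being the exception.

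The 7 alpha-ring genes tested, which form the gated outer rings, all had a negative fold change, with a median of -0.07 and a range of -0.27 to -0.02. None passed the test. Psma6 (GRCm38 chromosome 12, 55384222 to 55418454) had 3476, 3797 and 4194 normalised counts in the 3 double knockouts, against 4152, 4235 and 5490 in the controls. Its groups overlapped by the highest double knockout and the lowest control, and its log2 fold change was -0.27 ± 0.13 (SE; limma adjusted p = 0.367), or -0.14 without control replicate 3. At the other end, Psma4 (chromosome 9, 54950790 to 54958030) had 4897, 4589 and 5887 in the double knockouts and 4673, 5155 and 5746 in the controls, which is a log2 fold change of -0.02 ± 0.13. The eighth alpha gene, Psma8, is the testis form of the alpha4 subunit. It stood at 0, 4.10 and 0.895 normalised counts in the double knockouts and at 0, 2.74 and 0 in the controls, and was not tested.

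The beta ring holds the proteolytic sites, of which Psmb6 (beta1), Psmb7 (beta2) and Psmb5 (beta5) encode the constitutive ones. None of the 7 beta genes tested passed; 6 had negative fold changes, with a median of -0.12 and a range of -0.21 to 0.02. Psmb5 (chromosome 14, 54614119 to 54618022), the chymotrypsin-like subunit, had 1558, 1433 and 1990 normalised counts in double knockouts and 1546, 1358 and 2040 in controls. The 3 libraries of each group covered almost the same range, and the fold change was 0.02 ± 0.18 on the log2 scale, with a 95% interval of -0.40 to 0.43. Psmb6 (chromosome 11, 70525367 to 70527858), the caspase-like subunit, had 3185, 2842 and 3436 in double knockouts and 3213, 2921 and 3747 in controls, a log2 difference of -0.06 ± 0.12. Psmb7 (chromosome 2, 38588036 to 38644087), the trypsin-like subunit, had 2955, 2565 and 3127 in double knockouts and 2944, 2892 and 3664 in controls, a log2 difference of -0.13 ± 0.13. The most negative member was Psmb1 (chromosome 17, 15475021 to 15499751), which encodes the non-catalytic beta6. It had 6432, 5561 and 6419 in the double knockouts, against 6998, 6306 and 8050 in the controls, with overlapping groups and a log2 fold change of -0.21 ± 0.12 (limma adjusted p = 0.426). Psmb11, the thymus-specific beta5t of cortical epithelial cells, was at 0 in all 6 libraries and was not tested.

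The 6 ATPases of the 19S base, the ring that unfolds substrates, all had a negative fold change between -0.12 and -0.02, with a median of -0.07 and 0 called. Psmc3 had 5291, 4819 and 5850 normalised counts in the double knockouts, against 5719, 5123 and 6493 in the controls (log2 fold change -0.12 ± 0.12). Psmc5 had 3142, 2843 and 3995 in the double knockouts, against 3138, 3189 and 3719 in the controls (-0.02 ± 0.14). Both overlapped between groups, as did the other 4 ATPases.

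Of the 11 other 19S subunits, 9 had a negative fold change and 0 were called, with a median of -0.08 and a range of -0.21 to 0.08. Psmd14 (chromosome 2, 61711694 to 61800376) encodes the lid metalloprotease RPN11, which cuts ubiquitin chains off substrates. It had 3211, 3421 and 3650 normalised counts in double knockouts and 3943, 3651 and 4293 in controls. The highest double knockout lay just under the lowest control, and the log2 fold change of -0.21 ± 0.10 had a limma adjusted p of 0.354. Psmd4 (chromosome 3, 95032694 to 95042614), the ubiquitin receptor RPN10, had 3956, 3754 and 4136 in the double knockouts and 4145, 4173 and 4850 in the controls, also without overlap, at -0.15 ± 0.10 on the log2 scale (limma adjusted p = 0.509). Psmd3, a lid scaffold subunit, had the most positive value of the class, with 3745, 3556 and 4512 in the double knockouts and 3294, 3621 and 4262 in the controls (0.08 ± 0.13).

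The 6 regulators bind the core in place of, or beside, the 19S cap, and 3 of them were positive and 3 negative, with a median of -0.01. Psme1 and Psme2 encode PA28 alpha and beta, the 11S activator linked to antigen presentation. Psme1 had 10462, 10193 and 11938 normalised counts in the double knockouts and 9589, 10833 and 11746 in the controls, which is a log2 fold change of 0.02 ± 0.11. Psme2 had 5613, 5541 and 7574 in the double knockouts and 6800, 6482 and 7907 in the controls, which is a log2 fold change of -0.19 ± 0.15 (limma adjusted p = 0.582). The partner genes overlapped between the groups. Psmf1, which encodes the inhibitor PI31, differed by 0.00 ± 0.09 on the log2 scale, the smallest standard error among the 45 genes.

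Psme2b, a gene of a single exon that is nearly identical in sequence to Psme2, was the one proteasome gene whose interval left out 0. It had 568.8, 696.5 and 584.3 normalised counts in the double knockouts, against 393.8, 460.5 and 516.1 in the controls. All 3 double knockouts lay above all 3 controls, and the log2 fold change of 0.435 ± 0.156 (95% interval 0.075 to 0.794) had a limma adjusted p of 0.201. The longest reading frames of Psme2b and Psme2 are both 720 bases and are identical at 715 of 720 positions (99.3%), and 68.7% of the 50-base stretches of the Psme2b transcript also occur in a Psme2 transcript. Reads from these genes may therefore be split between them, and the sources used here do not say how multi-mapping reads were counted. The stretch below runs from base 484 to 543 of both reading frames and holds 3 of their differences, in capitals.
Psme2b: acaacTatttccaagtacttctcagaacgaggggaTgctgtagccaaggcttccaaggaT
Psme2: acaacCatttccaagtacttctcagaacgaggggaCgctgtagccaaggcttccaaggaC

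Psme2b (GRCm38 chromosome 11, 48945354 to 48946190, minus strand) also shares 41 of its 837 exon bases with a neighbour on the same strand, 9930111J21Rik1 (48946150 to 48979398). That gene passed the test, with 603.7, 664.5 and 500.2 normalised counts in the double knockouts, against 312.8, 344.0 and 260.8 in the controls (log2 fold change 0.94 ± 0.17, limma adjusted p = 0.0313). All 3 double knockouts lay above all 3 controls. The part of its reads, or of Psme2 reads, in the Psme2b value was not tested.

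Assembly chaperones help to build the particle and are not part of the finished one. In this class 0 of the 7 were called, with 4 positive and 3 negative fold changes and a median of 0.00. Psmg1 (chromosome 16, 95979933 to 95990960) encodes PAC1, which helps to assemble the alpha ring. It had 1011, 794.8 and 940.5 normalised counts in double knockouts and 732.2, 593.5 and 965.2 in controls. The highest library was a double knockout and the lowest 2 were controls, but the groups overlapped, and the log2 fold change was 0.28 ± 0.19 (limma adjusted p = 0.514). It was 0.115 without control replicate 2 and 0.466 without control replicate 3. Psmd5, a chaperone of the 19S base, had 1765, 1824 and 1814 in double knockouts and 1918, 1922 and 2042 in controls, without overlap, at -0.12 ± 0.09 on the log2 scale (limma adjusted p = 0.561). Psmd10 (gankyrin), the one X-linked gene of the set, had 953.1, 957.9 and 1140 in the double knockouts and 905.5, 901.9 and 1236 in the controls (0.01 ± 0.16). Psmc3ip, which is not a proteasome subunit, had 154.8, 118.8 and 268.4 in double knockouts and 117.9, 163.1 and 180.9 in controls (0.17 ± 0.33).

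The proteasome genes varied together from library to library within each genotype. In both groups the replicate numbered 3 was high: it was the highest of its group in 38 of 45 genes among the double knockouts (35.7% of all genes) and in 42 of 45 among the controls (38.8% of all genes). Both held for 36 of 45 genes, 80.0%, against 18.1% of all genes. Double knockout replicate 2 was the lowest of its group in 32 of 45 genes (34.5% of all genes), while the lowest control was replicate 2 for 25 genes and replicate 1 for 19. The median gene deviated from its group mean by -0.05, -0.14 and 0.19 log2 units in double knockout replicates 1 to 3 and by -0.07, -0.10 and 0.18 in the controls. All genes had medians between -0.01 and 0.01 in every library. The replicate numbers are those of the sample titles, and the deposited columns number the controls differently from the double knockouts. The labels do not say that a number marks a shared day or mouse.

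**Figure D2:**
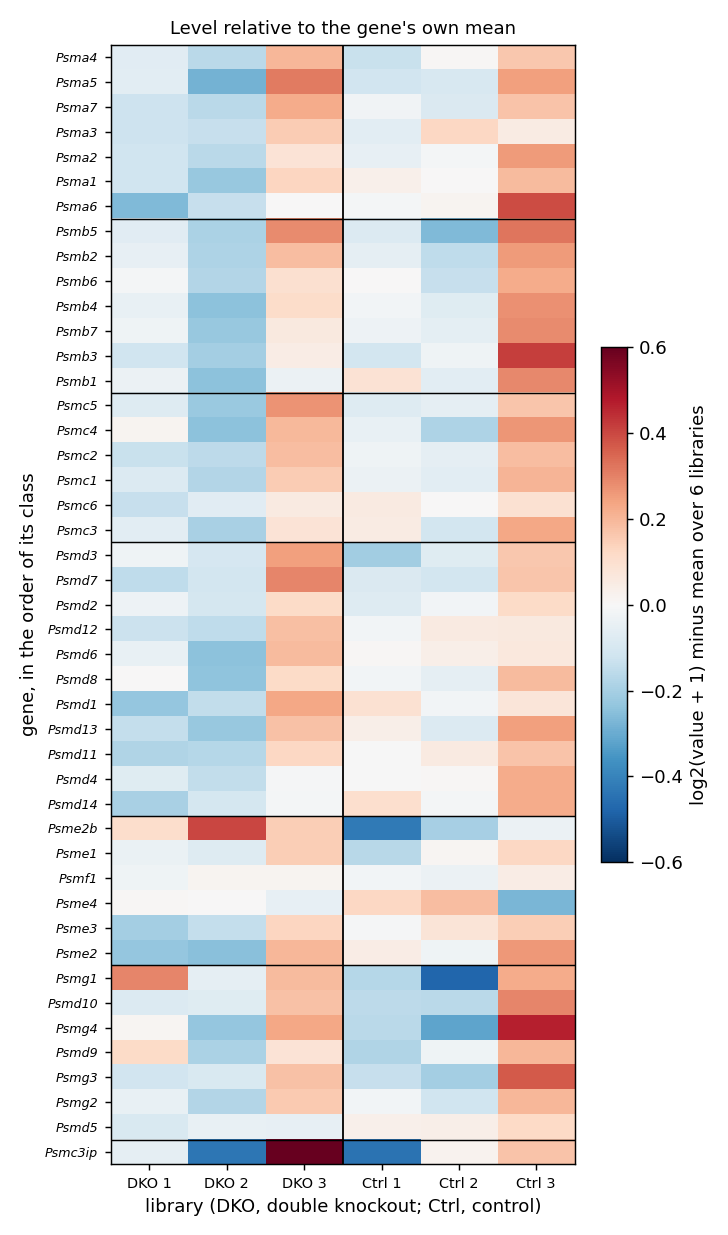
Level of each of the 45 tested proteasome genes in the 6 libraries, as log2(value + 1) minus the gene's mean over all 6, with horizontal lines between the classes and a vertical line between double knockouts (DKO) and controls (Ctrl). The columns of double knockout replicate 3 and control replicate 3 are red for most genes, and that of double knockout replicate 2 is blue; Psme2b and Psme4 are among the 9 genes that break the pattern.

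The 9 genes outside the shared pattern were Psma3, Psmb1, Psmd1, Psmd5, Psmd9, Psme2b, Psme4, Psmf1 and Psmg1. Psme4, which encodes the activator PA200, had 2941, 2933 and 2823 normalised counts in the double knockouts and 3190, 3329 and 2419 in the controls, so that control replicate 3 was its lowest library. Psmb5 followed the shared pattern in both groups, as given above, with its highest double knockout at 1990 and its highest control at 2040.

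Summed levels were highest in replicate 3 of both groups in every class. The 7 alpha-ring genes summed to 24456, 23764 and 29559 normalised counts in the double knockouts and to 25883, 26661 and 31157 in the controls. The 7 beta-ring genes summed to 23062, 20462 and 25138 in the double knockouts and to 23716, 22270 and 29040 in the controls. The 6 ATPases summed to 21737, 20261 and 25524 in double knockouts and 22813, 21727 and 26323 in controls. The other 19S subunits summed to 41997, 40446 and 49622 in double knockouts and 44286, 44343 and 50064 in controls. The sums of the 6 regulators (26902 to 31740 in double knockouts and 28117 to 31538 in controls) and of the 7 chaperones (5270 to 6006 in double knockouts and 5181 to 6553 in controls) likewise overlapped between the groups. Over all 45 genes the sum was 149715 ± 16063 in the double knockouts and 158354 ± 14291 in the controls (SD, n = 3 each), a log2 difference of -0.08, below the pooled SD of 0.14 log2 units. As a share of all normalised counts, the 45 genes took 0.460, 0.437 and 0.521% in the double knockouts and 0.472, 0.468 and 0.543% in the controls.

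Cell cycle genes also differed between libraries of a group. The 8 cell cycle markers, among them Mki67, Top2a and Pcna, summed to 44870, 25965 and 73978 in the double knockouts and 30264, 34786 and 40065 in the controls. Within the double knockouts this sum and the proteasome sum were both highest in replicate 3 and lowest in replicate 2. Within the controls both were highest in replicate 3, but their lowest libraries differed. The cell cycle sum was lowest in control replicate 1, and the proteasome sum in control replicate 2 (149959, against 150248 in control replicate 1). Between the groups the means moved in opposite directions, each by less than its pooled SD. The cell cycle mean was 48271 ± 24186 in double knockouts and 35038 ± 4905 in controls (SD, n = 3 each). That is a log2 difference of 0.46, with a pooled SD of 0.55. The proteasome mean was the lower in double knockouts, with a log2 difference of -0.08 and a pooled SD of 0.14. Mki67 alone had 16174, 7630 and 26640 in double knockouts and 8397, 10016 and 9291 in controls, so that its highest control was replicate 2. None of the 8 markers was called, and their part in the proteasome values was not tested.

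**Figure D3:**
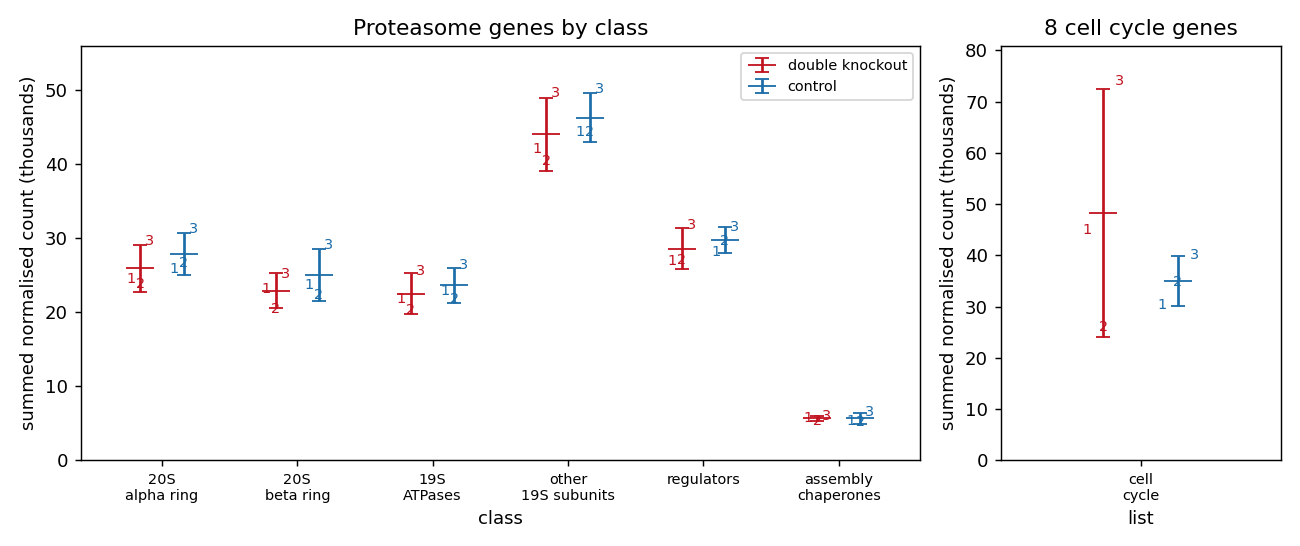
Summed normalised counts of the genes of each proteasome class, left, and of 8 cell cycle genes, right, in double knockouts (red) and controls (blue); digits are the replicates, horizontal bars the group means and vertical bars the SD over 3 libraries. Replicate 3 is the highest of its group in every class, and double knockout and control ranges overlap.

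Compared per length, the genes covered a wide range of levels. Levels here are normalised counts per kb of the union of a gene's exons, which understates genes with long rarely used exons. Psme1 was the highest, at 4920 per kb in the double knockouts and 4850 in the controls, followed by Psme2 at 3540 in the double knockouts and 4000 in the controls. Psma6 came next at 3100 in the double knockouts and 3750 in the controls, and then Psmb2, the beta4 subunit, at 2790 in the double knockouts and 2860 in the controls. Per length of the principal coding transcript, a measure added after the data were seen, Psme1 and Psme2 also ranked first and second, but Psma7 moved up to rank 3 from rank 17.

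The lowest genes were chaperones and the name match. Psmg3 stood at 93.0 per kb in the double knockouts and 95.5 in the controls, Psmc3ip at 99.4 in the double knockouts and 84.7 in the controls, and Psmd9 at 110 per kb in the double knockouts and 109 in the controls. Within the core, subunits that occur in equal numbers in the particle differed in level per kb. Psma3 had 616 per kb in double knockouts and 645 in controls, several-fold below Psma6. Much of this gap lies in the union exon lengths, 3894 bases for Psma3 and 1234 for Psma6. Before division by length, mean normalised counts in the double knockouts were 2398 for Psma3 and 3822 for Psma6. Psmd9 and Psmd5 have union exon lengths of 7248 and 7230 bases, which lowers their value per kb.

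**Figure D4:**
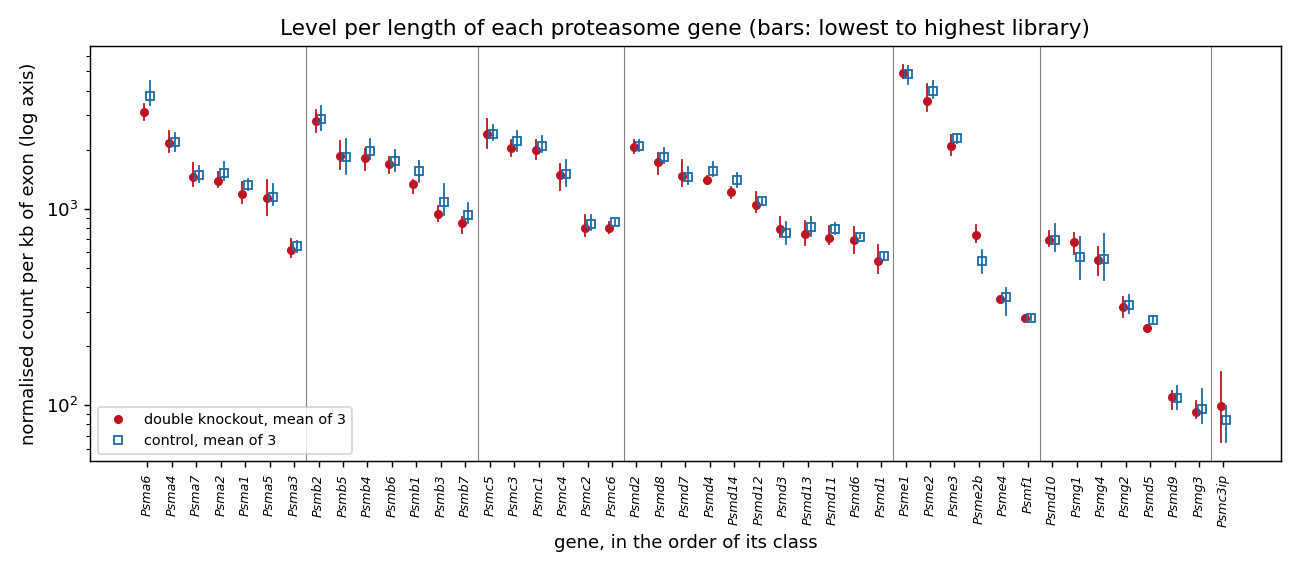
Mean normalised count per kb of exon (log axis) of each of the 45 genes in double knockouts (filled red) and controls (open blue), ordered by class and level, with bars from the lowest to the highest library. Psme1 and Psme2 are at the top and Psmd9, Psmg3 and Psmc3ip at the bottom in both groups.

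Each constitutive catalytic subunit has an inducible counterpart that replaces it in the immunoproteasome, and the ratio of the pair was taken within each library. For Psmb9 over Psmb6 (beta1i over beta1) the log2 ratio was 0.711, 0.408 and 0.535 in double knockouts and 0.013, 0.123 and 0.228 in controls. The means were 0.551 ± 0.152 in double knockouts and 0.121 ± 0.108 in controls (SD, n = 3 each), and all 3 double knockouts were above all 3 controls. For Psmb10 over Psmb7 (beta2i over beta2) it was 0.144, 0.368 and 0.156 in double knockouts and -0.186, -0.153 and -0.119 in controls, again without overlap. For Psmb8 over Psmb5 (beta5i over beta5) it was 3.063, 3.017 and 2.714 in double knockouts and 2.767, 3.054 and 2.752 in controls, with overlapping groups.

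The differences in log2 ratio were 0.43 for Psmb9 over Psmb6, 0.38 for Psmb10 over Psmb7 and 0.07 for Psmb8 over Psmb5. The 2-sided exact permutation p was 0.1 for each of the first 2, the smallest that 3 against 3 libraries can give, and 0.9 for the third. Adjusted over the 3 pairs, the first 2 had p = 0.15 in the exact permutation test, so none passed. The inducible genes on their own were not called either, with limma log2 fold changes of 0.37 ± 0.17 for Psmb9, 0.24 ± 0.12 for Psmb10 and 0.09 ± 0.12 for Psmb8. With limma's library weights Psmb9 was called as higher (log2 fold change 0.541, adjusted p = 0.0357). That setting called 1368 of all genes, against 398 in the main fit, and no other alternative called Psmb9.

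**Figure D5:**
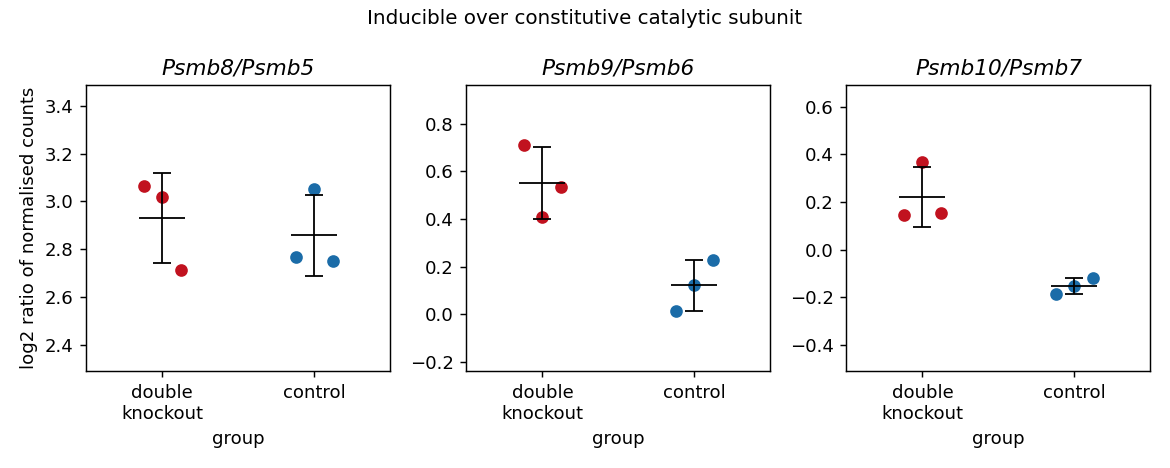
Log2 ratio of normalised counts of an inducible catalytic subunit to its constitutive counterpart in each library, double knockouts at left and controls at right of each panel; horizontal bars are means and vertical bars the SD over 3 libraries. The groups do not overlap for Psmb9 over Psmb6 and for Psmb10 over Psmb7, and overlap for Psmb8 over Psmb5.

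Proteasome factors whose symbols do not begin with Psm were read next. Of 9 such genes tested, among them the ubiquitin receptor Adrm1, the maturation factor Pomp and the deubiquitinases Usp14 and Uchl5, 0 were called, 8 were negative and the median log2 fold change was -0.10. The gene with the smallest p was Fbxo7, which encodes a binding partner of PI31. It had 1111, 1150 and 1276 normalised counts in double knockouts and 1415, 1317 and 1493 in controls, without overlap, and a log2 fold change of -0.26 ± 0.11 (limma adjusted p = 0.281). Akirin2, which helps to import proteasomes into the nucleus, was the other gene of these 9 without overlap, at 1698, 1776 and 1735 in double knockouts and 1928, 2015 and 2052 in controls. Thus 2 of the 9 were lower without overlap and 0 higher. Of all genes, 11.3% were lower and 12.3% higher without overlap.

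Among 17 genes that bring substrates to the proteasome or regulate its genes, 0 were called, with 7 positive and 10 negative fold changes and a median of -0.05. Nfe2l1 encodes the transcription factor that induces proteasome genes when proteasome activity is short, and it had the smallest p of the 17. Its normalised counts were 5489, 5648 and 5219 in double knockouts and 4575, 4760 and 4199 in controls. All double knockouts lay above all controls, with a log2 fold change of 0.27 ± 0.09 (limma adjusted p = 0.172). Ddi2, the protease that activates this factor, had 2847, 3289 and 3167 in the double knockouts and 2770, 2840 and 2332 in the controls, without overlap, at 0.23 ± 0.11 (limma adjusted p = 0.355). Ubb, a polyubiquitin gene, stood at 10834 to 11739 in double knockouts and 11823 to 13656 in controls, also without overlap. These were all the genes of the 17 without overlap, 2 higher (12.3% of all genes) and 1 lower (11.3% of all genes). Akirin2, Ddi2 and Ubb were chosen after their values were seen.

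Because the genes moved together across libraries, their promoters were searched for shared motifs. RefSeq promoters of GRCm38.p6, windows of 300 bases that begin upstream of a start and end just past it, were found for 39 of the 47 genes and for 27025 genes in all. In all, 8 motifs were searched on both strands, and a gene was counted if any of its starts held the motif. CCGGAAG, an ETS-type site, was held by 15 of 39 (38.5%, against 9.9% of all genes), and the shorter TTCCGG, contained in the reverse of it, by 21 (53.8%, against 16.7%). GCGCANGCG, from the motif of nuclear respiratory factor 1 (NRF1, which here does not mean NFE2L1), was held by 7 (17.9%, against 7.0%). TTCNNTTTC, from the interferon-stimulated response element, was held by 7 (17.9%, against 9.8%). The CCAAT box was held by 14 (35.9%, against 41.1%). TGACNNNGC, the core of the antioxidant response element that NFE2L1 and NFE2L2 can bind, was held by 6 (15.4%, against 14.0%), the looser TGANNNNGC, which includes it, by 22 (56.4%, against 45.0%), and TGACTCAGC by 0 (0.0%, against 0.5%). The NRF1 and interferon patterns were first counted in a form longer by 1 letter and were shortened after those counts were seen. These are matches of letters and not shown sites. The 27025 genes were not limited to the 13602 tested, and shares among genes expressed here were not counted. Whether an excess is particular to proteasome genes was therefore not tested. The 39 genes also include Psmb11, which had no reads, and Psmc3ip, which is not a proteasome subunit and held CCGGAAG and TTCCGG.

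Below are the promoters of Psma6, which had the most negative fold change, at both of its listed starts (chr12:55383972-55384271 and chr12:55398575-55398874, plus strand), of the catalytic Psmb5 (chr14:54617946-54618245, minus) and Psmb6 (chr11:70525107-70525406, plus), of Psmd14 (chr2:61711444-61711743, plus), and of Psme2b (chr11:48946361-48946660, minus), which broke the shared pattern. Capitals mark CCAAT at the first start of Psma6, which matches the gene's annotated start, CCGGAAG at its second start, which lies inside the gene, TGACNNNGC in Psmb5 and Psmb6, and both CCAAT and GCGCANGCG in Psmd14, on either strand. The Psme2b window surrounds the RefSeq start, lies wholly upstream of the annotated gene given above and falls inside 9930111J21Rik1. It has no capitals, since it held none of these motifs, nor the interferon-stimulated one.
Psma6 first start: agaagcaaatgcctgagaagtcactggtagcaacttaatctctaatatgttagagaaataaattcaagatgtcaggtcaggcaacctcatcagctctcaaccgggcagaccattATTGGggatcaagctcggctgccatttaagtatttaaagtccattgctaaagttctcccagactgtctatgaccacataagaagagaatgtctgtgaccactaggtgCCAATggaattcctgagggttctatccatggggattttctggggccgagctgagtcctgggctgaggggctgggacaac
Psma6 second start: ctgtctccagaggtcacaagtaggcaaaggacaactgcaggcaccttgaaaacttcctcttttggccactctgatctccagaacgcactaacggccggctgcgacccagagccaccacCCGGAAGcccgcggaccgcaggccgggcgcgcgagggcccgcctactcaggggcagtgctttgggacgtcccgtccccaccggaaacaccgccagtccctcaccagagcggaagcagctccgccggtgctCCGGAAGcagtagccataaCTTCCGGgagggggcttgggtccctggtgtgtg
Psmb5: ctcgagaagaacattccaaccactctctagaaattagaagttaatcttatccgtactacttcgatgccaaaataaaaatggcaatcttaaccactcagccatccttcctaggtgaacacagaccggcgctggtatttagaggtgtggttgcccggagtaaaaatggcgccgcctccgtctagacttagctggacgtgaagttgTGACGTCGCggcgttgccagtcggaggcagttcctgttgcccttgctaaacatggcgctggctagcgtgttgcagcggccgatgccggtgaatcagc
Psmb6: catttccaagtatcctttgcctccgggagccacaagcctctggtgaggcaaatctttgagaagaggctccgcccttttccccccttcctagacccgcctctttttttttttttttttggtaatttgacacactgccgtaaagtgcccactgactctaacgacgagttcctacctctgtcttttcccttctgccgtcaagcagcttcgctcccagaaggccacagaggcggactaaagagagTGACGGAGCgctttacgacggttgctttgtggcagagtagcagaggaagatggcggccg
Psmd14: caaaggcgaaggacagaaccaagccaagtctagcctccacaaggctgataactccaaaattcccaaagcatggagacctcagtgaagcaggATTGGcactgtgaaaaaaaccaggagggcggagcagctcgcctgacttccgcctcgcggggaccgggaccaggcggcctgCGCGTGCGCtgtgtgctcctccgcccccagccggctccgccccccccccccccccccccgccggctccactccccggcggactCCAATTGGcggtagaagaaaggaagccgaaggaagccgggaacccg
Psme2b: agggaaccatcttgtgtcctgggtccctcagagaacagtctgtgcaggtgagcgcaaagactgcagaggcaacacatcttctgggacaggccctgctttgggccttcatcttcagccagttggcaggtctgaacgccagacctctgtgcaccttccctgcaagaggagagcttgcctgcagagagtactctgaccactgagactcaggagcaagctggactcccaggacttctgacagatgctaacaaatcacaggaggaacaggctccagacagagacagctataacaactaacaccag

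Some values may hold reads of overlapping genes, since the sources used here do not state the strand setting of the counting. Of the 47 genes, 13 share exon bases with another annotated gene, and for 8 of these the other gene reached a value of 10. Psmc3ip shared 21.2% of its exon bases with Mlx on the opposite strand, and Psmb7 shared 11.8% with Nek6.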

How the data were processed

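RNA of sorted mouse splenic Tfh cells was measured in 3 Cbl-/-Cbl-b-/- and 3 control libraries. The authors deposited normalised counts (a signal: read counts divided by a size factor of the library, per the file headers and the values) for 47729 genes. Beside them stand the columns of a comparison by the authors: mean values, log2 fold changes, a test statistic (score) and p-values, used only as an alternative. Tools in the submitters' processing notes, without roles, are featureCounts 1.4.6, STAR 2.5.1b and DESeq2 1.12.3, with build GRCm38; for the annotation, strand setting and multi-mapping reads, nothing is stated in the sources used here. Whole reads were recovered for 100% of values (tolerance 0.001 of a read), with size factors of 0.73 to 1.22. Libraries of a group differed beyond sampling noise in every pair (chi-square over degrees of freedom 10.8 to 96.8).

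Genes with at least 10 in at least 3 of 6 libraries were kept (13602). The test was limma-trend 3.58.1 (R 4.3.3) on log2(value + 1), 2-sided, with genotype as the only term, Benjamini-Hochberg adjustment over all kept genes and a threshold of 0.05; it was tested on simulated data. Ratios used an exact permutation test. Alternatives were DESeq2 1.42.0 and edgeR 4.0.16 with the recovered reads, the authors' columns, pseudocounts of 0.5 and 10, other filters and scalings, library weights, a replicate block and each library left out. Genes named in full were, per class, the most positive and most negative fold change, Psmb5 to Psmb7, genes failing the filter, and, of the related lists, the inducible subunits and the smallest p. Names outside this rule were chosen after their values were seen. The genes and lists were chosen with earlier results of these data known. Of 121 list entries 120 matched; a marker gene of other cells is not reported here. Coordinates are from GENCODE M21 (13557 of 13602 genes matched) and promoters from RefSeq on GRCm38.p6. Python 3.11.15, numpy 2.4.6, pandas 2.3.3, scipy 1.17.1 and matplotlib 3.10.9 were used.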

Additional observations from a re-analysis of the deposited data

How the results depend on the processing

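Under the 17 alternatives, 0 proteasome genes were called in either direction. Their median log2 fold change ran from -0.160 to 0.004 with each library left out and from -0.07 to -0.05 otherwise, and the count of negative values ran from 22 to 43 of 45 with each library left out. The count of all genes called, 398, moved to 1368 with library weights, 1098 with DESeq2, 975 in the authors' deposited table and 58 to 498 with each library left out. With the replicate block it was 265. Deviations of same-numbered libraries correlated weakly over all genes, at 0.074, 0.054 and 0.092, and each library correlated best with its own number. The other pairs ran from -0.096 to 0.032. Whether the replicate numbers pair the samples was not tested. Among the 20 genes named by rule, 6 changed sign in at least 1 alternative, and none of the 6 was called. Psma4 was 0.016 with library weights and -0.126 to 0.054 with each library left out. The ranges with each library left out were -0.120 to 0.182 for Psmb5, -0.142 to 0.038 for Psmb6, -0.160 to 0.086 for Psmc5, -0.022 to 0.181 for Psmd3 and -0.159 to 0.425 for Psmc3ip, whose main value was 0.167. Without changing sign, they were -0.339 to -0.138 for Psma6, -0.294 to -0.118 for Psmb1, -0.193 to -0.023 for Psmb7, -0.200 to -0.030 for Psmc3, -0.336 to -0.104 for Psme2 and 0.115 to 0.466 for Psmg1. Psmb9 passed as higher with library weights (log2 0.54, limma adjusted p = 0.0357). The summed chaperone level differed by -0.01 log2 units as counts, and by 0.04 per kb of exon. The cause of these changes was not tested. Groups of 3 libraries limit the precision, and Psma8 and Psmb11 were below the filter on low values.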
